A study of Mus musculus with 3 samples.

Results

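The genes described here encode the subunits of the constitutive proteasome, chosen by symbol: every gene of the deposited RNA matrices named Psma, Psmb, Psmc or Psmd with a number, leaving out the immunoproteasome subunits Psmb8, Psmb9 and Psmb10. That gave 36 genes of the 19039 in the 3 matrices, with 8 alpha ring genes (Psma), 8 beta ring genes (Psmb), 6 ATPase genes (Psmc) and 14 non-ATPase genes (Psmd). The matrices of the naive brain and the blood held 35 of them, and Psmb11 was listed in the matrix of the brain with metastases alone. The rule used no measured value.

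The series is a CITE-seq experiment, in which RNA and antibody tags on surface proteins are read from the same single cells, on female C57Bl/6 mice of 2 to 3 months. The mice labelled control were Cx3cr1CreERT and those labelled depleted were Cx3cr1CreERT-ROSA-iDTR, in which tamoxifen switches on a diphtheria toxin receptor in cells that express Cx3cr1. Mice of both genotypes received tamoxifen, a wait of 1 month and then diphtheria toxin, so that toxin alone does not separate the arms. Brains came from mice with no metastases (naive) or from mice injected through the carotid artery with E0771 cells, a mouse mammary carcinoma line that shares the strain background. Blood came from mice with metastases. Each hashed sample was 1 brain hemisphere or the blood, brain cells were enriched for immune cells on Percoll, and the design text itself says that the depleted brains kept some microglia. Cx3cr1 is also expressed by monocytes and some other leukocytes, which limits the line as a model of microglia alone. Only 1 hashed sample per arm and tissue could be used, and the brain with metastases, called the metastatic brain below, was 1 pooled sample here, so no test was possible, no p-value is given, and every interval below covers counting error alone.

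The proteasome is the protease that degrades proteins tagged with ubiquitin. Its core particle is a barrel of alpha rings, which gate the entry, and beta rings, of which Psmb5, Psmb6 and Psmb7 carry the active sites. The regulatory particle caps the barrel: its ATPases (Psmc) unfold the substrate, and its non-ATPase subunits (Psmd) bind ubiquitin, remove it or hold the lid together. In lymphoid cells and in cells exposed to interferon gamma, Psmb8, Psmb9 and Psmb10 replace the active subunits Psmb5, Psmb6 and Psmb7 to make the immunoproteasome, which is known for making peptides for antigen presentation.

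Some droplets and labels need stating before the results. The naive brain matrix held 785 cells labelled control and 1868 labelled depleted, the blood 1371 and 1553, and the metastatic brain 5933, with median raw UMIs (unique transcript tags) per cell of 8621 and 10120 in the naive brain arms and 4571 and 5885 in the blood arms. All 339 barcodes listed in both the naive brain and the blood had the same raw UMI total in both, yet 168 of the 339 carried the same arm label in both. A microglia-like cluster made up 36.7% of the cells labelled depleted in the naive brain and 17.1% of those labelled control, which goes against a plain reading of the labels. The row of the toxin receptor transgene had UMIs in 27 cells labelled depleted and in 0 of 785 labelled control in the naive brain, which allows a share of cells with a UMI of up to 0.382% and sets no limit on cells that carry the transgene. In the blood 1 cell labelled control and 3 labelled depleted had such UMIs, and in the brain pooled from mice with metastases 16 cells had.

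Cells named epithelial tumour-like from a few markers were found in all 3 matrices, and they matter most for these genes. They are called Krt8+ cells: clusters with at least 3 of 11 fixed tumour markers 2-fold up and a Krt8 level at least 0.5 times that of the matrix's highest cluster. In the authors' clusters they were cluster 6 of the naive brain, with 111 cells, and cluster 6 of the blood, with 180 cells. In the metastatic brain they were 3 of the clusters made here, with 1163 cells, and 1 of the 3 had no tumour marker among its 10 leading genes. The markers behind the label were Krt8, Wfdc2 and Rhox5, which in the naive brain stood at 6.56, 9.77 and 11.9 CP10k (corrected UMIs per 10000 of the same cells) against 0.103, 0.176 and 0.125 CP10k in the other cells. Lgals7 was at 0.206 CP10k, while Krt18, Krt19, Krt7, Cldn3 and Wfdc18 had 0 corrected UMIs and Epcam had 1, so that the label rests on a few markers. The leukocyte gene Ptprc was at 0.0493 CP10k in these cells of the naive brain and at 7.42 CP10k in the others. A naive brain holds no metastasis by design, and 80 of its 111 Krt8+ barcodes (72.1%) were also listed in another matrix, against 27.3% of its other cells. In the blood the share was 83.9%, and in the metastatic brain 186 of 1163 were. Over the 3 matrices there were 1243 distinct Krt8+ barcodes.

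The constitutive subunit genes were far higher in Krt8+ cells than in any other cluster. In the naive brain their summed level was 98.2 CP10k (95% exact Poisson interval 94.3 to 102) in Krt8+ cells labelled control and 96.7 CP10k (94.7 to 98.7) in those labelled depleted. The other cells of the same arms had 41.9 and 38.1 CP10k. In the blood, Krt8+ cells had 129 CP10k (126 to 132) in the control arm and 130 CP10k (127 to 133) in the depleted arm, against 33.4 and 36.7 CP10k in the other cells. The pooled metastatic brain gave 109 CP10k (109 to 110) against 50.4 CP10k. Krt8+ cells were thus the highest class in every arm and matrix, and their values in the 2 arms of a tissue differed by less than the counting interval. Among the 29 Krt8+ barcodes listed in both the naive brain and the blood, 13 carried the same arm label in both. The arms are therefore not shown to be separate groups of Krt8+ cells, and their likeness is no replication. Cell by cell, the middle 50% of Krt8+ cells of the naive brain ran from 80.2 to 114 CP10k and that of the other cells from 29.2 to 48.7 CP10k, with no overlap between these ranges.

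**Figure D1:**
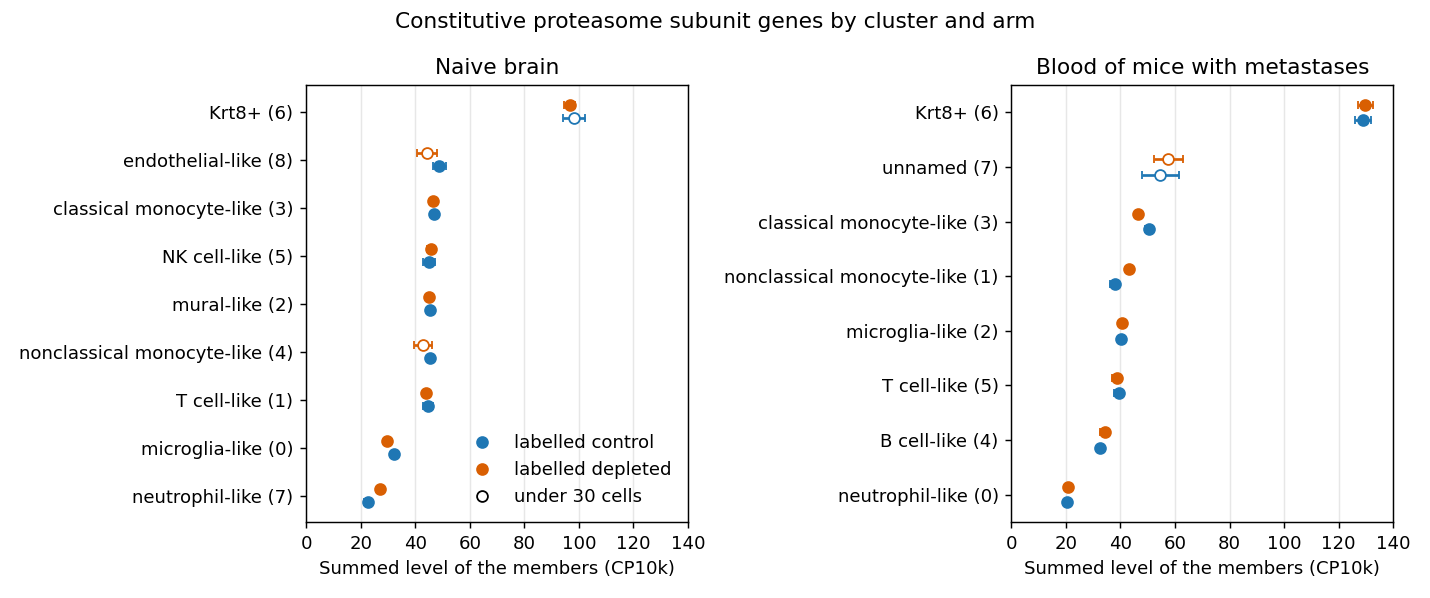
Summed level of the constitutive proteasome subunit genes (CP10k, horizontal axis) in each authors' cluster of the naive brain and the blood, with 1 point per arm, bars for the 95% exact Poisson interval and open points for fewer than 30 cells. Cluster numbers are in brackets. Krt8+ cells lie at 96.7 CP10k or more in each arm, every other point lies at 57.5 CP10k or less, and neutrophil-like cells are lowest in both tissues.

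A gene counted as measured when it reached 0.5 CP10k on at least 1 side, and as past the fold when its level was 1.5-fold apart (0.58 on the log2 scale, with a pseudocount of 0.1 CP10k). In the naive brain 29 of 33 measured members were at least 1.5-fold higher in Krt8+ cells and 0 were lower. The background was high: 48.8% of all measured genes were 1.5-fold higher there and 33.6% lower. The median log2 ratio was 1.31 over the members and 0.53 over all measured genes. In the metastatic brain 29 of 33 were higher and 0 lower, against 45.6% and 32.8% of all genes, with a median of 1.07 against 0.41. In the blood 32 of 33 were higher and 0 lower, against 49% and 38% of all genes, with a median of 1.78 against 0.53. Within the arms the counts of members higher were 27 of 33 (control) and 29 of 33 (depleted) in the naive brain, where 47.5% and 49.8% of all genes were higher. In the blood they were 31 and 32 of 33, with 50.2% and 47.7% of all genes. With the barcodes listed in more than 1 matrix left out, 28, 27 and 32 of 33 members were higher in the naive brain, the metastatic brain and the blood, now over 31, 977 and 29 Krt8+ cells. The shares of all genes were then 48.5%, 45.3% and 48.9%, and the medians 1.099, 1.03 and 1.85 over the members against 0.51, 0.39 and 0.52 over all genes.

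Of the 7 measured genes of the alpha ring, which forms the gated ends of the barrel, 6 were past the fold in both brain matrices and 7 in the blood. The shares of all measured genes 1.5-fold higher were 48.8%, 45.6% and 49% in the naive brain, the metastatic brain and the blood. Psma3 was at 8.21 and 8.60 CP10k in Krt8+ cells labelled control and depleted of the naive brain and at 11.5 and 12.03 CP10k in those of the blood. The other cells had 2.42, 2.08, 2.01 and 2.03 CP10k in the same order, so that no arm of one class overlapped the other. Its log2 ratio was 1.92 (1.82 to 2.01) in the naive brain, 1.69 in the metastatic brain and 2.49 in the blood. Psma5 and Psma6 had log2 ratios of 1.96 and 1.90 in the naive brain, and those of the blood were 2.64 and 2.53. Psma1 was the exception of the ring. It was at 1.59 and 1.45 CP10k in Krt8+ cells of the naive brain arms against 1.33 and 1.17 CP10k in the others, a log2 ratio of 0.26 (0.05 to 0.47), and it reached the fold in the blood alone, at 0.66.

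The beta ring, which carries the active sites, had 5, 6 and 7 of 7 measured genes past the fold in the naive brain, the metastatic brain and the blood. The shares of all measured genes 1.5-fold higher were 48.8%, 45.6% and 49% in the same order. Psmb7, the trypsin-like subunit, was at 3.47 and 3.15 CP10k in Krt8+ cells of the naive brain arms and at 4.26 and 4.52 CP10k in those of the blood, against 0.96, 0.82, 0.66 and 0.81 CP10k in the other cells. Its log2 ratio was 1.78 (1.63 to 1.93) in the naive brain, 1.54 in the metastatic brain and 2.42 in the blood. Psmb5, the chymotrypsin-like subunit, was at 3.63 and 3.40 CP10k in the Krt8+ cells and 1.85 and 1.59 CP10k in the other cells of the naive brain arms. That is a log2 ratio of 1.00 (0.86 to 1.15) there, with 0.99 in the metastatic brain and 1.46 in the blood. Psmb6, the caspase-like subunit, had log2 ratios of 0.85, 0.75 and 1.71 in the same 3 matrices. Among the structural members Psmb1 and Psmb3 were the smallest, at 0.50 and 0.54 in the naive brain, under the fold, and at 1.11 and 1.04 in the blood.

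The ATPases were past the fold in 6 of 6 genes in the naive brain and the blood and in 5 of 6 in the metastatic brain, where Psmc3 was at a log2 ratio of 0.52. Of the 13 measured non-ATPase genes 12 were higher in each matrix. The shares of all measured genes 1.5-fold higher were 48.8%, 45.6% and 49% in the naive brain, the metastatic brain and the blood. Psmd7, a subunit of the lid, had the largest ratio of all members in each of the 3: it was at 3.98 and 4.23 CP10k in Krt8+ cells of the naive brain arms and at 5.99 and 6.10 CP10k in those of the blood, against 1.04, 0.92, 0.68 and 0.70 CP10k in the other cells. Its log2 ratio was 2.02 (1.88 to 2.16), 1.78 and 2.96 in the naive brain, the metastatic brain and the blood. Psmd9, an assembly chaperone rather than a subunit of the finished particle, and Psmd3 followed in the naive brain with 1.99 and 1.97, and Psmd12 in the blood with 2.59. Psmd13 stood apart as the non-ATPase gene that did not differ by the fold in any matrix. It was at 0.80 and 0.92 CP10k in Krt8+ cells of the naive brain arms against 0.89 and 0.78 CP10k in the others, and its log2 ratios were 0.12 (-0.14 to 0.37), -0.22 (-0.30 to -0.15) and 0.15 (-0.11 to 0.40).

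**Figure D2:**
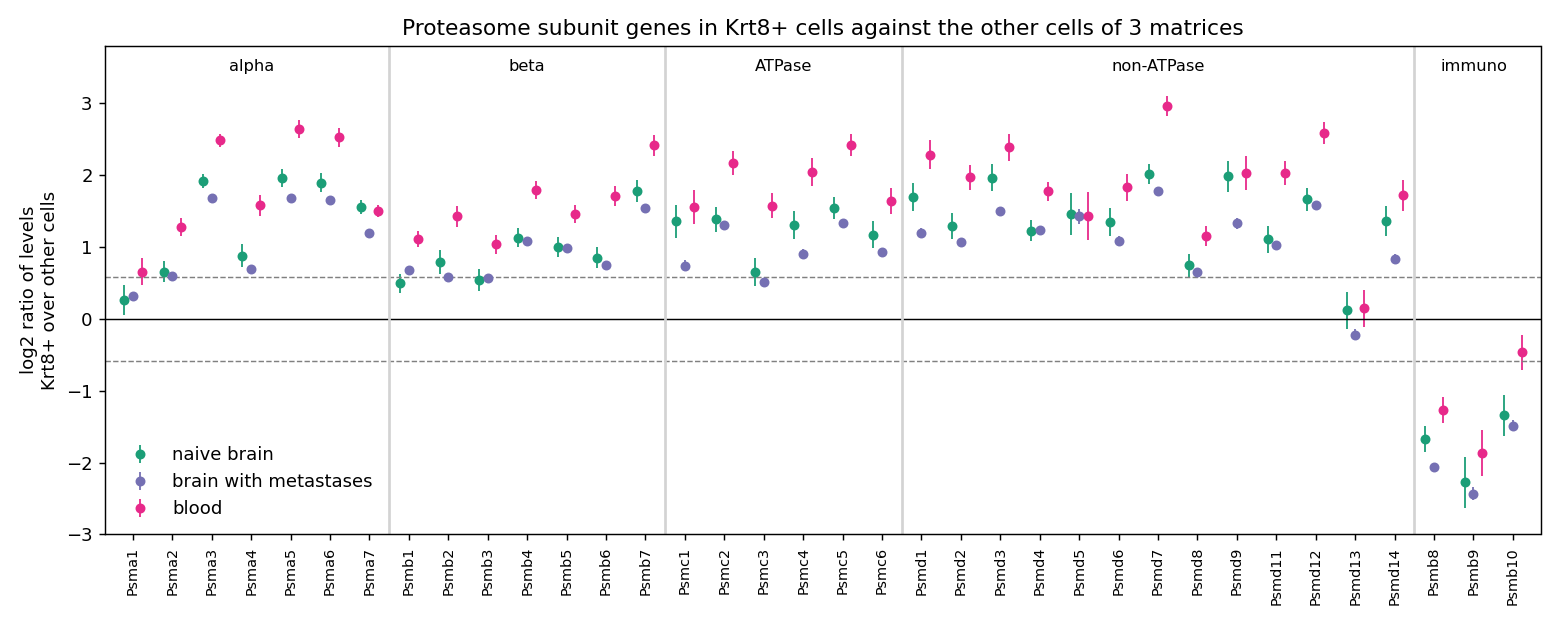
Log2 ratio of the level in Krt8+ cells over all other cells (vertical axis) for each measured member and for Psmb8, Psmb9 and Psmb10 (horizontal axis, by subunit group), with 1 point per matrix and bars for the 95% exact interval of the counts. Dashed lines mark 1.5-fold. Members lie above 0, apart from Psmd13 at -0.22 in the metastatic brain, and the 3 immunoproteasome genes lie below 0.

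The 3 members that were not measured in this comparison are restricted to other tissues or scarce. Psma8, the testis alpha subunit, had 37, 111 and 12 corrected UMIs in all cells of the naive brain, the metastatic brain and the blood, with 0 in Krt8+ cells of each. Psmb11, the thymus beta subunit, had 2 UMIs in all. Psmd10, an assembly chaperone, was at 0.156, 0.168 and 0.0396 CP10k in Krt8+ cells of the 3 matrices, with 0.291, 0.273 and 0.264 CP10k over all cells.

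Depth moved with this result. Krt8+ cells had a median of 157758 raw UMIs in the naive brain matrix and of 160798 in that of the blood, against 9059 and 4636 in the other cells. The authors' depth correction left a median of 1 corrected UMI per 14.5 raw UMIs in Krt8+ cells of the naive brain and per 22.6 in those of the blood. Set against the 282 other cells of the naive brain with 30000 or more raw UMIs, whose summed level was 40.2 CP10k, 28 of 33 members were 1.5-fold higher, and 49.3% of all measured genes were. The median log2 ratio was 1.18 over the members and 0.55 over all genes. Set against the 174 such cells of the blood, at 48.1 CP10k, 31 of 33 members and 50.4% of all genes were, with medians of 1.43 and 0.60. These deep cells were still shallower than Krt8+ cells, so depth was not matched. Their median was 44365 raw UMIs (naive brain) and 42497.5 (blood). They had a median of 4.09 and 6.39 raw UMIs per corrected UMI, against the 14.5 and 22.6 of Krt8+ cells. The part that depth and its correction played in the size of the ratios was not tested further.

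Core and regulatory subunits were both higher in Krt8+ cells, the regulatory ones by slightly more in the pooled Krt8+ cells of each matrix. In the naive brain the summed core level was 56.7 CP10k against 24.1 CP10k in the other cells, a ratio of 2.35 (2.29 to 2.41), and the summed regulatory level was 40.3 against 15.1 CP10k, a ratio of 2.67 (2.59 to 2.75). The 2 ratios were 2.12 and 2.23 in the metastatic brain and 3.41 and 4.16 in the blood, with intervals that do not overlap in any matrix. The Krt8+ clusters of the metastatic brain did not all share this. There the regulatory sum over the core sum was 0.68 and 0.66 in the clusters of 340 and 507 cells. It was 0.59 in the cluster of 316 cells, below the 0.61 of the other cells. The median log2 ratio of the core members minus that of the regulatory members was -0.42 in the naive brain, but -0.088 with a pseudocount of 1 CP10k. Across the clusters of the naive brain, the regulatory sum was lowest relative to the core sum in T-cell-like cells, at 0.54, and highest in microglia-like cells and Krt8+ cells, at 0.72 and 0.71. Classical monocyte-like cells of the blood had 0.46. An unnamed blood cluster of 19 cells, led by Ttr and Enpp2, had 0.95.

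The immunoproteasome genes went the opposite way to their constitutive counterparts. In Krt8+ cells of the naive brain Psmb8 was at 1.99 (control) and 1.83 CP10k (depleted), against 5.08 and 6.61 CP10k in the other cells. In Krt8+ cells of the blood it was at 2.19 and 1.63 CP10k, against 4.75 and 4.67 CP10k. Each Krt8+ value was below each value of the other cells. The log2 ratios of Psmb8, Psmb9 and Psmb10 were -1.67 (-1.85 to -1.49), -2.28 (-2.63 to -1.93) and -1.34 (-1.63 to -1.05) in the naive brain. The metastatic brain gave -2.06, -2.44 and -1.49. In the blood they were -1.27, -1.87 and -0.47, the last of which did not reach the fold.

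The stretches before the starts of the genes of both kinds are shown to place the motifs searched beside the genes of the ratio below. They are the 250 bases upstream of the RefSeq start (GRCm38.p6), 5′ to 3′ on the gene's strand. Psmb5 lies at chr14:54617996-54618245 (minus strand) and Psmb6 at chr11:70525107-70525356 (plus strand), and capitals mark matches to TGACNNNGC, the core of the antioxidant response element that Nfe2l1 and Nfe2l2 bind. Psmb8 lies at chr17:34197945-34198194 (plus strand), where capitals mark TTCNNNGAA, the palindrome that STAT factors bind. Psmb9 lies at chr17:34187331-34187580 (minus strand), where capitals mark ATTGG, the CCAAT box read on the other strand.
Psmb5: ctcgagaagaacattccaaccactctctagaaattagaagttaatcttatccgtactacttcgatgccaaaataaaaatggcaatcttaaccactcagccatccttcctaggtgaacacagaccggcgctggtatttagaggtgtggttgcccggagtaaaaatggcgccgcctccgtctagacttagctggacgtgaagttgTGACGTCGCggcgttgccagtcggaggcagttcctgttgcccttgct
Psmb6: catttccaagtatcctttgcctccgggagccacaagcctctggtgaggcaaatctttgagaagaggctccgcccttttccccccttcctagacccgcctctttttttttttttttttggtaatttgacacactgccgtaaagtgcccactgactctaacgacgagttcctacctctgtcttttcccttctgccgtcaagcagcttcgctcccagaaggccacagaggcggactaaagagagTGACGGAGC
Psmb8: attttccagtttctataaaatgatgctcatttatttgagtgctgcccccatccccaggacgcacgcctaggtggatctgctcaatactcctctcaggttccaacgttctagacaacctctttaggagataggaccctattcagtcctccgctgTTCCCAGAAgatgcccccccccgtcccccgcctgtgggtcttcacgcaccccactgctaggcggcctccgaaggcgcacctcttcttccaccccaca
Psmb9: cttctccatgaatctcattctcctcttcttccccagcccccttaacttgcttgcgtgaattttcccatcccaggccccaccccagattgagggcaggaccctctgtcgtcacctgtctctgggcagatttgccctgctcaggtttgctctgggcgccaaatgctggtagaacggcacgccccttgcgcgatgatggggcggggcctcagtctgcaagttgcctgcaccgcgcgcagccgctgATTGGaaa
The matches begin at 47 bases (Psmb5), 9 bases (Psmb6), 97 bases (Psmb8) and 8 bases (Psmb9) before the start. Of the 36 members, 29 had an entry in the promoter table. Searched on both strands, TGACNNNGC was found in 5 of these 29 (Psmb5, Psmb6, Psmc6, Psmd12 and Psmd9) and in 10.2% of all promoter windows of that length. CCAAT was found in 12 of the 29 and in 33.8% of all windows, and CCGGAAG, the site of ETS factors, in 9 of the 29 and in 6.91% of all. Of the 3 immunoproteasome genes, CCAAT was found in 1 (Psmb9), and TGACNNNGC and CCGGAAG in 0. With 3 genes on that side, the counts cannot show whether a motif separates the kinds. TTCNNNGAA was found in 0 of the 29, in 1 of the 3 immunoproteasome genes and in 7.02% of all windows. These 4 are among 12 motifs searched, and a match of letters is no evidence of binding.

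The summed UMIs of Psmb8, Psmb9 and Psmb10 over those of Psmb5, Psmb6 and Psmb7 give 1 value per cluster. The assay tags 1 end of each transcript, so the UMIs are not divided by gene length; the ratio is compared between clusters and is no measure of the subunits in a particle. In the naive brain it was 0.30 (0.23 to 0.38) in Krt8+ cells labelled control and 0.29 (0.25 to 0.33) in those labelled depleted, against 1.87 and 2.58 in the other cells. In the blood it was 0.27 and 0.22 against 2.38 and 1.97, and in the metastatic brain 0.23 against 2.13. The log2 difference between Krt8+ and other cells of the naive brain was -3.02 (-3.19 to -2.84, by a normal approximation), and -2.55 without the barcodes listed in more than 1 matrix. T-cell-like clusters were among the highest. T-cell-like cells had 4.11 (3.92 to 4.32) in the naive brain, 3.43 in the blood and 4.01 in the Cd8a-rich cluster of the metastatic brain, and NK-cell-like cells of the naive brain had 3.18. Dendritic-like cells of the metastatic brain had 3.79. B-cell-like cells had 3.02 in the blood and 2.17 in the metastatic brain. Microglia-like cells of the naive brain had 1.84 (1.76 to 1.93). Nonclassical monocyte-like cells had 1.21 and mural-like cells 1.24, and the interval of the second, 1.17 to 1.31, holds the value of the first. A mural-like cluster of the metastatic brain, led by the contractile genes Acta2, Tagln and Myh11, had 0.27 (0.22 to 0.32), in the range of Krt8+ cells, at a summed member level of 47.2 CP10k. The unnamed blood cluster of 19 cells, led by Ttr and Enpp2, had 0.10 (0.047 to 0.20). That was below the 0.24 (0.22 to 0.27) of Krt8+ cells of the blood, so Krt8+ cells did not have the lowest ratio there.

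**Figure D3:**
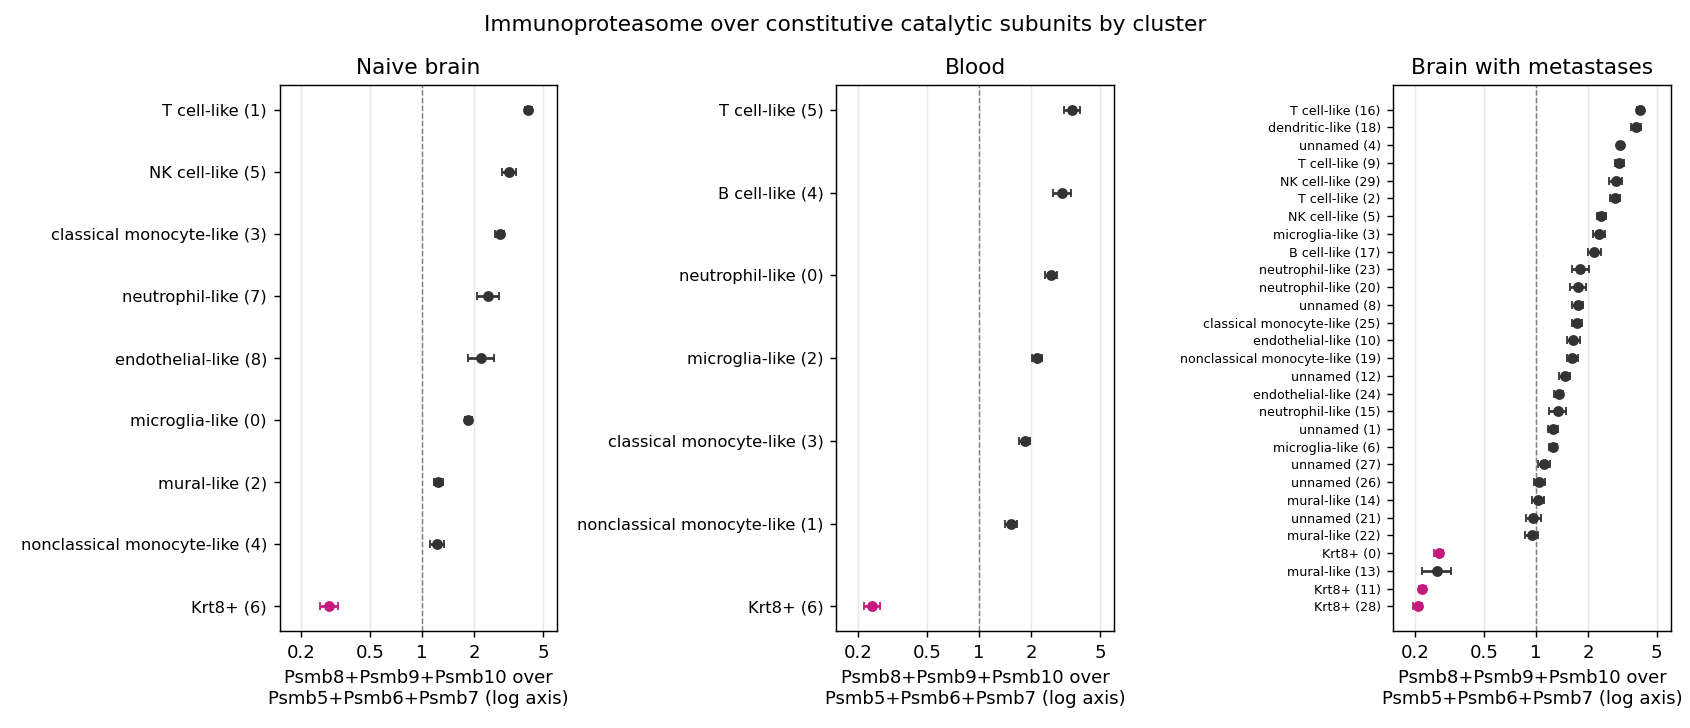
Summed level of Psmb8, Psmb9 and Psmb10 over that of Psmb5, Psmb6 and Psmb7 (horizontal axis, logarithmic) in each cluster of 30 or more cells of the 3 matrices, with bars for the 95% exact interval of the counts and Krt8+ clusters in magenta. Krt8+ clusters lie below 0.3, T-cell-like clusters lie at 2.88 to 4.11, and 1 mural-like cluster of the metastatic brain lies at 0.27.

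Other genes of the pathway were read from a fixed list of 37 genes. Of the 26 measured in the naive brain, 13 were 1.5-fold higher in Krt8+ cells and 4 lower, against 48.8% and 33.6% of all measured genes. In the metastatic brain the counts were 13 and 6 of 26, against 45.6% and 32.8%, and in the blood 16 and 5 of 26, against 49% and 38%. The share of higher genes on the whole list was thus near that of all genes in both brain matrices. The assembly factors Psmg1, Psmg2 and Psmg3, which pair the alpha subunits, had log2 ratios of 1.99, 1.64 and 2.08 in the naive brain. The maturation factor Pomp had 0.40 there and 0.85 in the blood. Among the regulators, Psme1 and Psme2, which form the interferon-inducible cap, had -1.35 and -0.58, while Psme3, the nuclear cap, had 1.84. Of the 10 measured receptors and associated proteins 8 were higher, beside the 48.8% of all genes, with Adrm1 (a ubiquitin receptor) at 1.87, Uchl5 and Usp14 (deubiquitinases on the cap) at 1.76 and 1.68, and Txnl1 at 1.70. The ubiquitin-activating enzyme Uba1 had -0.90 in the naive brain. Nfe2l1, the factor that raises proteasome genes when the protease is inhibited, differed little, at 0.16, and Nfe2l2 had -2.42.

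Among the remaining clusters of the naive brain and the blood, neutrophil-like cells had the lowest levels. Their summed member level was 22.7 and 27.2 CP10k in the arms of the naive brain and 20.6 and 20.7 CP10k in those of the blood. Leaving out Krt8+ cells, 18 of 29 measured members were at least 1.5-fold lower in neutrophil-like cells than in the other cells of the naive brain, where 41% of all measured genes were lower, with a median log2 ratio of -0.63 against -0.39 over all genes. In the blood 26 of 29 were lower, against 46.6% of all genes, with medians of -1.03 and -0.48. Psmb6 was at 0.49 CP10k in these cells of the blood against 1.70 CP10k in the others, a log2 ratio of -1.61. Psmc3 had -1.50 and Psmd2 -1.40. Psmd4, the ubiquitin receptor of the regulatory particle, was the least lower, at -0.10 in the blood, with 1.28 against 1.38 CP10k. In the naive brain Psmd1, Psmd7 and Psmd12 had -1.22, -1.17 and -1.04, and Psma1 -0.22. Of the 105 neutrophil-like cells of the naive brain 65.7% had a barcode listed in another matrix, against 7.66% of the 966 of the blood.

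Microglia-like cells of the naive brain came next above neutrophil-like cells, at 32.3 CP10k in the control arm and 29.5 CP10k in the depleted arm. T-cell-like, nonclassical monocyte-like, mural-like, NK-cell-like, classical monocyte-like and endothelial-like clusters lay close together, from 44.0 CP10k (43.4 to 44.6) to 47.5 CP10k (45.5 to 49.6), and the counting intervals of neighbours in that order overlapped. In the blood the order of the other named clusters was neutrophil-like, B-cell-like (33.3 CP10k), T-cell-like (39.0 CP10k), microglia-like (40.4 CP10k), nonclassical monocyte-like (42.1 CP10k) and classical monocyte-like cells (48.3 CP10k). The unnamed blood cluster of 19 cells lay above these, at 56.3 CP10k (52.3 to 60.7). In the metastatic brain the order was mixed: 3 neutrophil-like clusters were at 28.5, 32.9 and 40.4 CP10k and a pair of microglia-like clusters at 32.6 and 36.8 CP10k. The highest cluster there that was not Krt8+ was an unnamed one led by Cxcl9 and Ccl8, with 492 cells, at 62.6 CP10k and a ratio of immunoproteasome to constitutive catalytic subunits of 3.07. In the 3 Krt8+ clusters the summed level was 97.6, 108 and 123 CP10k, and the middle one of these was led by the cell cycle genes Cenpf and Ube2c.

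The cluster in which each member was highest or lowest was also counted. Krt8+ cells had the highest level of 30 of 33 members among the 9 clusters of the naive brain. The 3 others were Psmb1, highest in T-cell-like cells, Psmd13, highest in classical monocyte-like cells, and Psma1, highest in nonclassical monocyte-like cells. In the blood Krt8+ cells were highest for 32 of 33, and Psmd13 was again highest in classical monocyte-like cells. Neutrophil-like cells had the lowest level of 28 of 33 members in the naive brain and of 31 of 33 in the blood. These counts were not made over all measured genes, so they have no background share. Of all genes 48.8% were 1.5-fold higher in Krt8+ cells of the naive brain than in the other cells.

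Between the arms the members differed little. Clusters with at least 30 cells per arm were compared, and the median log2 ratio, depleted over control, lay between -0.13 and 0.20 in all 13. The nonclassical monocyte-like, endothelial-like and Krt8+ clusters of the naive brain had too few cells in 1 arm. In microglia-like cells of the naive brain 0 of 29 members were past the fold, against 4.13% of all genes. The median was -0.09 over the members, with 23 of 29 below 0, and -0.05 over all genes. The summed level was 32.3 CP10k (31.4 to 33.3) in the control arm and 29.5 CP10k (29.1 to 29.9) in the depleted arm, a difference beyond counting error that has no replicate behind it. Psmb2, Psmd7 and Psmd3 were lowest, at -0.40 (-0.61 to -0.18), -0.37 and -0.35, and Psmd4, Psmb7 and Psmc2 highest, at 0.20, 0.17 and 0.15. In the T-cell-like cluster 1 of 29 was past the fold (background 6.64%), Psmd14 at 0.64 (0.12 to 1.26) on 23 UMIs in the control arm. In the mural-like and classical monocyte-like clusters 0 of 29 and 0 of 31 were (8.15% and 8.83%). In NK-cell-like cells 1 of 30 was (14.4%), Psmc3 at 0.71 (0.14 to 1.35), while Psmd4 had -0.58. Barcodes listed in another matrix made up 29.8% of the microglia-like and 62.2% of the classical monocyte-like cells of the naive brain. This limits the comparison of the arms in these clusters.

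Neutrophil-like cells of the naive brain had the widest spread between arms, on 49 and 56 cells. There 5 of 23 members were 1.5-fold higher in the depleted arm, against 23.6% of all genes past the fold, which is near the members' own share. They were Psmd2 at 1.27 (0.35 to 2.47), Psmd7 at 0.92, Psmc2 at 0.86, Psma4 at 0.70 and Psmb4 at 0.61, on 8 to 38 UMIs in the control arm. Psmb8 was at 4.64 CP10k in the depleted and 2.64 CP10k in the control arm, a log2 ratio of 0.79 (0.48 to 1.12). Barcodes listed in another matrix made up 65.7% of these neutrophil-like cells, which limits this comparison of the arms.

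In the blood 26 of 30 members were above 0 in nonclassical monocyte-like cells, with a median of 0.20 against 0.06 over all genes. The summed level was 37.8 CP10k (36.1 to 39.6) in 95 cells labelled control and 43.2 CP10k (42.2 to 44.1) in 386 labelled depleted. The members past the fold there were 2 of 30, against 11.5% of all genes: Psmc2 at 0.76 (0.19 to 1.43) and Psma1 at 0.60 (0.21 to 1.02), with Psmb7 at 0.55. Classical monocyte-like cells went the other way, with 20 of 28 below 0 and a median of -0.13 against -0.06 over all genes. They had 50.4 CP10k (49.0 to 51.8) in the control and 46.5 CP10k (45.3 to 47.8) in the depleted arm, and 0 past the fold (5.29%). Their lowest members were Psmd6, Psma1 and Psmc1, at -0.50, -0.42 and -0.41, and Psmb9 had -0.81 (-1.09 to -0.52). Neutrophil-like cells had 1 of 17 past the fold (3.54%), Psmc6 at 0.60 (0.25 to 0.98). Microglia-like, B-cell-like and T-cell-like cells of the blood had 0 of 31, 0 of 28 and 0 of 29 past it (2.93%, 10.5% and 7.88%). Krt8+ cells of the blood had 0 of 33 (2.7%), a median of 0.00 and 17 members above 0, while Psmb9 there was at 0.59 CP10k in the control and 0.31 CP10k in the depleted arm on 36 and 20 UMIs. Of the Krt8+, microglia-like and T-cell-like cells of the blood 83.9%, 82.7% and 49.0% had a barcode listed in another matrix. Among the 121 microglia-like barcodes listed in both the naive brain and the blood, 61 carried the same arm label in both. This limits the comparison of the arms in these clusters.

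**Figure D4:**
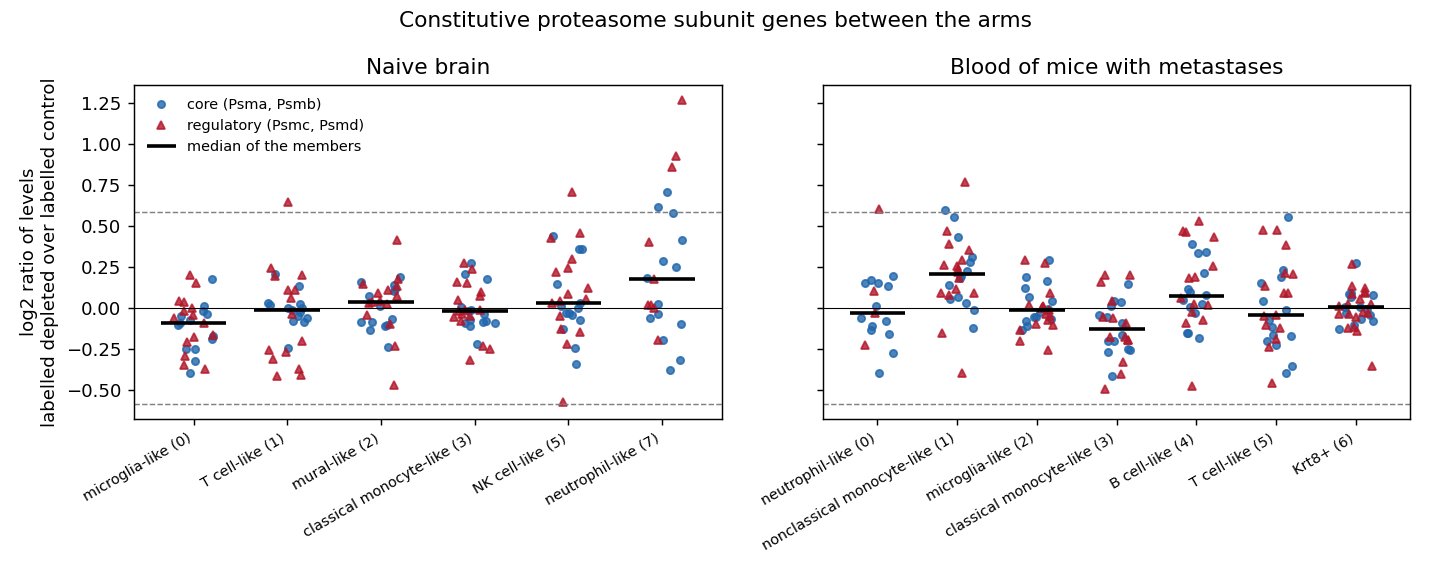
Log2 ratio of the level in cells labelled depleted over cells labelled control (vertical axis) for each measured member, by authors' cluster of the naive brain and the blood with at least 30 cells per arm. Circles are core and triangles regulatory genes, bars are medians and dashed lines mark 1.5-fold. Medians lie between -0.13 and 0.20, and the widest spread is that of neutrophil-like cells of the naive brain, whose control arm has 49 cells.

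The naive brain and the blood were corrected separately by the authors, so levels across them can differ through the correction as well as the tissue. Barcodes listed in both matrices, with the same raw UMI total in each, show how far the corrected levels of 1 droplet can differ. Over the classes named in both, 9 member values were 1.5-fold apart. In Krt8+ cells 0 of 33 members were (9.74% of all genes), yet 29 of 33 were lower in the naive brain. The median log2 ratio was -0.43 over the members and 0.04 over all genes, with summed levels of 97.0 and 129 CP10k. The 29 Krt8+ droplets listed in both matrices gave 96.7 CP10k in the naive brain matrix and 125 CP10k in the blood matrix, with a median of -0.36. In microglia-like cells 30 of 31 members were lower in the naive brain, with a median of -0.36 against 0.006 over all genes. Their summed levels were 30.0 and 40.4 CP10k, and 2 were past the fold (19.9%), Psma7 at -0.80 (-0.91 to -0.68) and Psma2 at -0.72. The 121 microglia-like droplets listed in both gave 27.7 and 25.4 CP10k, with a median of 0.10 (0.03 over all genes), a gap of the opposite sign. Of the microglia-like cells of the blood 82.7% had a barcode listed in another matrix, and without such barcodes the median was -0.52 over the members and -0.01 over all genes, and 12 of 30 members were past the fold, a share near the 40.5% of all genes.

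Neutrophil-like cells had 5 of 20 members 1.5-fold higher in the naive brain (37.6% of all genes past the fold), namely Psmb6, Psmc3, Psmb2, Psmc5 and Psma4, with log2 ratios of 0.83, 0.82, 0.67, 0.61 and 0.59, and a median of 0.27. The 28 neutrophil-like droplets listed in both gave 28.9 and 19.5 CP10k, a median of 0.60 and 11 of 20 members past the fold, at equal raw UMI totals. Of all genes 12% were past it in these droplets, with a median of -0.01. The members' ratios there rest on small counts, from 2 (Psmb2) to 22 (Psma7) corrected UMIs in the blood matrix. Classical monocyte-like cells had Psmd14 at 0.72 (0.41 to 1.04) and Psma7 at -0.77 (-0.88 to -0.66), 2 of 31 past the fold (35.1%), and a median of 0.13. Psmb8 and Psmb9 had 0.62 and 0.79 in them. T-cell-like and nonclassical monocyte-like cells had 0 of 29 (11.5%) and 0 of 31 (14.8%), with medians of 0.13 and 0.10.

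**Figure D5:**
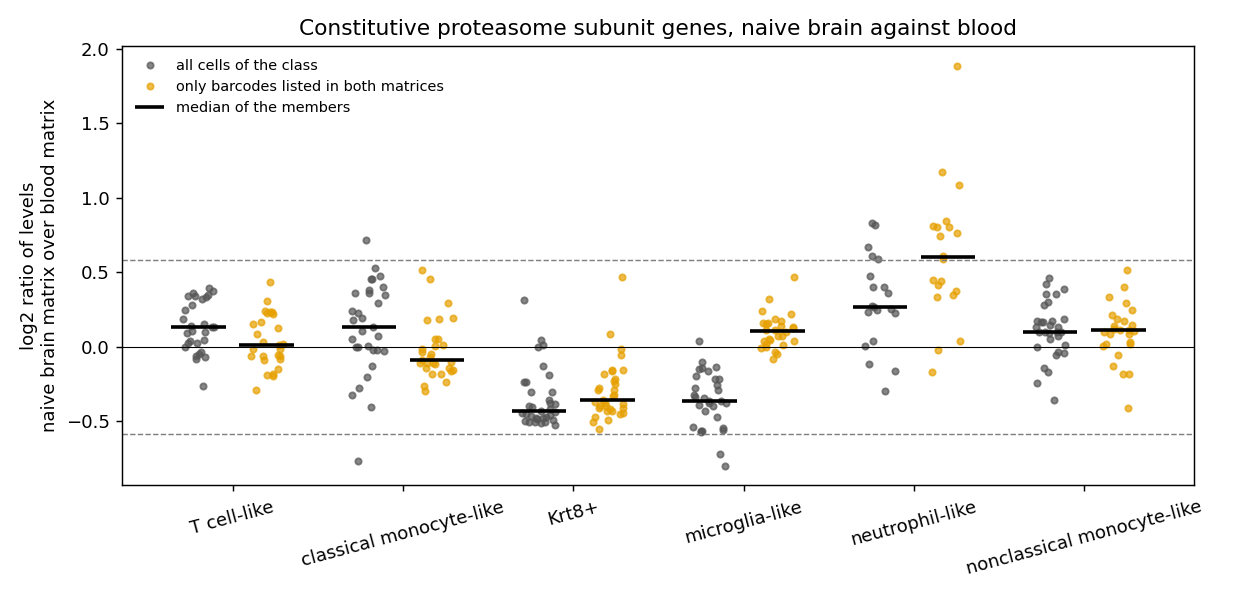
Log2 ratio of the level in the naive brain matrix over the blood matrix (vertical axis) for each measured member, by class. Grey points use all cells of the class and orange points only barcodes listed in both matrices, with bars for the medians and dashed lines at 1.5-fold. For Krt8+ cells the medians are -0.43 and -0.36, and for microglia-like cells -0.36 and 0.10.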

How the data were processed

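The data are 3 libraries of 1 droplet pool, and the labels' protocols give 10x 3′ v3 chemistry. The submitters' processing notes name Cell Ranger 3.1, Seurat 3.1.1 and the build mm10. Values in the 3 deposited matrices are ln(1 + x), the natural log, where x is a depth-corrected UMI count, and the authors corrected each matrix on its own: after the log was undone, 100% of nonzero values were whole within 1e-06. Raw UMI counts per cell, clusters, arms and gates come from the deposited annotation, of which 44 columns were not used. The brain with metastases, for which no cell-to-arm map was used here, was clustered (scanpy 1.11.5, igraph 0.11.9; 2000 variable genes without the members, 30 components, 20 neighbours, Leiden resolution 1.0). No doublet caller was run, and all deposited cells were kept.

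Corrected UMIs were summed over a class and scaled to 10000 (CP10k), with exact Poisson and Clopper-Pearson 95% intervals that treat corrected UMIs as counts and cover counting error only. Log2 ratios used a pseudocount of 0.1 CP10k and genes of at least 0.5 CP10k on 1 side. Intervals of ratios were put on the same scale, and that of a difference of log2 ratios is a normal approximation. No test was made, as each arm and tissue had 1 hashed sample. Pseudocount, filter, scale, total, cells, fold, classes and members were varied. Clusters were named from fixed marker lists, with at least 3 markers 2-fold up. The cut on the Krt8 level and the demand that 1 marker be among the 10 leading genes were set after values were seen. Any member could be named; full values were given to the catalytic subunits, their immunoproteasome counterparts and the 3 highest and lowest members of a comparison. The members and lists were chosen with earlier results of these data known. The summing and the fold were tested on simulated data. Promoter sequences are from RefSeq.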

Additional observations from a re-analysis of the deposited data

Results flagged for a closer look

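The transgene row DTR, which the proteasome comparisons do not use, had UMIs in 27 of 1868 cells labelled depleted in the naive brain and in 0 of 785 labelled control, and 23 of the 27 lay in the microglia-like cluster. In the blood, 1 cell labelled control and 3 labelled depleted had such UMIs, all of them microglia-like, so the row is not confined to the depleted arm. The pooled brain with metastases had 16 such cells.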

How the results depend on the processing

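The count of members 1.5-fold higher in Krt8+ cells (29 in the naive brain, 29 in the metastatic brain, 32 in the blood) held within 1.5 times under the filters, the per-cell mean, the other total, the left-out barcodes, the left-out shallow and deep cells and the left-out chaperones, and under both other Leiden resolutions in the metastatic brain. In the metastatic brain it was 19 with a pseudocount of 1 CP10k and 18 at 2-fold. Calling Krt8+ cells 1 by 1, by UMIs of both Krt8 and Krt18, gave 3 in the naive brain and 6 in the metastatic brain. That rule took 16 cells of the naive brain, of which 0 lay in the Krt8+ cluster, and 74 of the metastatic brain, of which 38 did, so it describes other cells. It turned the log2 ratio in the naive brain for Psmb7 (-0.34), Psmd14 (-0.69), Psma7 (-0.66), Psmb4 (-0.38), Psma5 (-1.24), Psmd7 (-0.044), Psma4 (-0.44), Psmd11 (-0.97), Psmd3 (-0.51), Psma2 (-0.34), Psma6 (-0.94), Psma3 (-0.24) and Psmd2 (-0.43), and in the metastatic brain for Psmd14 (-0.030). It gave a core minus regulatory difference of -0.53 and a log2 difference in immunoproteasome to catalytic subunits of -2.71.

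The core minus regulatory difference (-0.42) was -0.088 with a pseudocount of 1 CP10k and -0.35 without barcodes listed in more than 1 matrix, where the immunoproteasome difference (-3.02) was -2.55. The number of naive brain clusters with a positive median between arms (3 of 6) was 5 with the total free of mitochondrial, ribosomal protein and haemoglobin genes, 5 with the authors' surface gates and 1 without shared barcodes, where 4 clusters kept enough cells, so the medians between arms have no settled sign. The 9 member values apart between tissues became 1 with a pseudocount of 1 CP10k, 3 with a filter of 2 CP10k, 19 without shared barcodes, 0 at 2-fold and 55 with surface gates. The causes were not tested. Against other cells of 30000 or more raw UMIs, whose median depth was still below that of Krt8+ cells, the differences were -0.46 and -2.86. That cut was chosen after seeing the data. No paired analysis was possible because each arm and tissue had 1 hashed sample.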
